A study of Mus musculus with 4 samples.

Results

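The genes described here encode the proteins of the cytosolic ribosome. Every probe set of the array annotated with exactly 1 gene symbol was taken, where that symbol was Rpl or Rps followed by digits and at most a letter a, x, y or l, or was Rplp0, Rplp1, Rplp2 or Rpsa. Pseudogenes and the Rps6k kinases were left out. The rule found 128 of 45037 probe sets, which stand for 67 of 17097 genes: 43 genes of the large (60S) subunit with 79 probe sets and 24 of the small (40S) subunit with 49. The samples were splenic dendritic cells (DC) of MARCO-/- mice, which lack a scavenger receptor of class A, and of wild type (WT) mice. Both were labelled as of the C56BL/6 background, where the study's methods name C57BL/6 for the WT mice. By the methods the mice were 8 to 12 weeks old, with WT matched in age. CD11c-positive cells pooled from 5 to 6 mice were cultured overnight with 100 ng/ml lipopolysaccharide (LPS), the bacterial ligand of TLR4, or with PBS. RNA of MARCO-/- LPS, MARCO-/- PBS, WT LPS and WT PBS cells was hybridized to 1 array each, so there is no replicate, no test and no error of a ratio. A gene was called when it differed by at least 2-fold, the threshold of the study's methods, and a smaller difference is given as a value with no claim that the groups differ.

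Cytosolic ribosomal proteins are made in near-equal numbers, since every ribosome carries a copy of almost each of them next to the ribosomal RNA. Their mRNAs are among the most abundant of a growing cell. Most begin with a short stretch of pyrimidines at the 5′ end, the 5′ terminal oligopyrimidine (TOP) motif, through which mTOR signalling sets how well they are translated without a change in how much mRNA there is. Some members also act away from the ribosome: Rpl5, Rpl11 and Rpl23 bind Mdm2, the ligase that degrades p53, and Rps27l, a paralog of Rps27, is a target gene of p53. An array measures mRNA, and neither translation nor ribosome number can be read from it.

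The stretch of pyrimidines can be seen around the start sites that RefSeq gives. For 53 of the 67 genes the RefSeq promoter table of build GRCm38.p6 held a start, 64 starts in all. A run of 8 or more C or T between 20 bases before and 30 bases after a start was found in 28 of these 53 genes (52.8%), against 21.5% of the 27025 genes of the table. The letters CCGGAAG, the core bound by factors of the ETS family, occurred on either strand of the 300-base promoter in 24 of 53 genes (45.3%, against 9.93% of all genes), and TATAAA, the TATA box, in 6 of 53 (11.3%, against 15.7%). A match in letters is a description and not a site, and a start in the table need not be the one used in these cells. The following windows of 30 bases, 12 before and 18 from the start on, are written 5′ to 3′ on the strand of the gene, with runs of 8 or more C or T in capitals. The first 4 show such a run over the start in genes whose brightest probe set stayed within 2-fold in every comparison, and the last 3 belong to Rps27l and Rpl41, the genes with probe sets past 2-fold in both genotypes and in more than 1 probe set.
Rpl27a, chr7:109519183-109519212, plus strand: ttcgtgagCTCCTCCCTTTTCCCTTTCTgc
Rpl7a, chr2:26910795-26910824, plus strand: CCCTCTTCTTTCTTTCTCCagcagccgagc
Rpl15, chr14:18270969-18270998, minus strand: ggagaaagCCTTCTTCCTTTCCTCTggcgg
Rps6, chr4:86857350-86857379, minus strand: cggaagtcgggCCTCTTTTTCgtgacgcct
Rps27l, first start, chr9:66946074-66946103, plus strand: CTCCTCCCCgccgcctctatcccggaagtt
Rps27l, second start, chr9:66946401-66946430, plus strand: atgggcttcagggtcactaacgggcctcgc
Rpl41, chr10:128549151-128549180, minus strand: acgggccggctcggaagtgacgacaccgag
At the first start of Rps27l a run of 9 C or T ended before the start, and the second start had none. In the window of Rpl41 the longest run was 3, and its brightest probe set also stayed within 2-fold in every comparison. Short runs were found in genes without a call too, such as Rpl24 (longest run 2), Rpl10 (3) and Rps15 (3). The windows are picked examples, and runs were not compared with the LPS ratios.

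The values are intensities that the authors had normalized with RMA, a method that corrects background, equalizes the distributions of the arrays and summarizes the probes of a set. The median of all intensities was 4.87, and values near it are background. Of the 128 probe sets 97 (75.8%) reached a log2 intensity of 8 on at least 1 array, against 6.11% of all probe sets. Judged by its brightest probe set, which is used below to stand for a gene, 63 of 67 genes reached that level. Their median intensity was 2921 in MARCO-/- LPS, 3186 in MARCO-/- PBS, 3305 in WT LPS and 3387 in WT PBS. The mRNA of nearly every ribosomal protein was therefore measured far above background on each array. The 4 genes below this level were Rpl14 (25.2 to 32.7 over the 4 arrays) and Rps15a (4.04 to 4.32), parts of the core ribosome, and Rpl39l (5.80 to 8.77) and Rpl3l (2.08 to 2.53), paralogs known from testis and from muscle. Each of the 4 has a single probe set, so a low value may belong to the probes and not to the mRNA, which was not tested. The same holds for dim probe sets of genes that were bright elsewhere: Rpsa, a component of the small subunit, had 3174 and 3.29 with its 2 probe sets in MARCO-/- PBS. For this reason intensities were compared between arrays and never between probe sets.

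The arrays also held RNA that marks other cells, of the spleen and, in the last list below, of stroma and skeletal muscle. Summed over its 12 measured markers, the DC list had 6911 in MARCO-/- LPS, 17512 in MARCO-/- PBS, 7506 in WT LPS and 16860 in WT PBS, and 11 to 12 of the markers were above the median of all intensities on each array. Of the 12, 9 were lower with LPS and 3 higher in each genotype, and a sum follows its brightest genes. Sums over the B, T, NK, plasma, macrophage, neutrophil and erythroid lists differed between arrays too. The macrophage sum over 11 genes was 659 in MARCO-/- LPS, 2966 in MARCO-/- PBS, 436 in WT LPS and 1874 in WT PBS, and the NK sum over 9 genes 343, 1375, 506 and 1741 on the same arrays. The macrophage marker Spic alone had 434, 234, 247 and 189 on these arrays. It was higher with LPS in both genotypes, whereas the other 10 macrophage markers were lower. Between genotypes with LPS, 4 of the 11 were at least 2-fold higher in MARCO-/- and 4 lower, against 2.09% and 1.31% of all genes. The stromal and muscle sum over 14 genes was 73.3 in MARCO-/- LPS, 802 in MARCO-/- PBS, 2445 in WT LPS and 75.8 in WT PBS, so it runs in opposite directions in the genotypes. The part of these cells in the values below was not tested. Fewer cells of a type and less RNA per cell cannot be told apart in such bulk RNA.

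Between LPS and PBS cells, Rps27l was the single gene of the set with a probe set past 2-fold among those that reach log2 8, in both genotypes. In MARCO-/- cells 4 of the 128 probe sets passed 2-fold in favour of LPS and 4 in favour of PBS, against 5.14% and 4.98% of all probe sets. In WT cells 3 were called higher with LPS and 4 lower, against 4.59% and 7.97% of all. These shares, 4 of 128 or fewer in each direction, are near or below those of all probe sets and say nothing particular about the genes. All 3 probe sets of Rps27l were among the higher ones in both genotypes. Each of the other called probe sets stayed under a log2 intensity of 8 on all arrays: Rps24 in MARCO-/- among the higher, and Rpl41 (2 probe sets), Rps13, Rpl22 and Rpl9 among the lower.

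**Figure D1:**
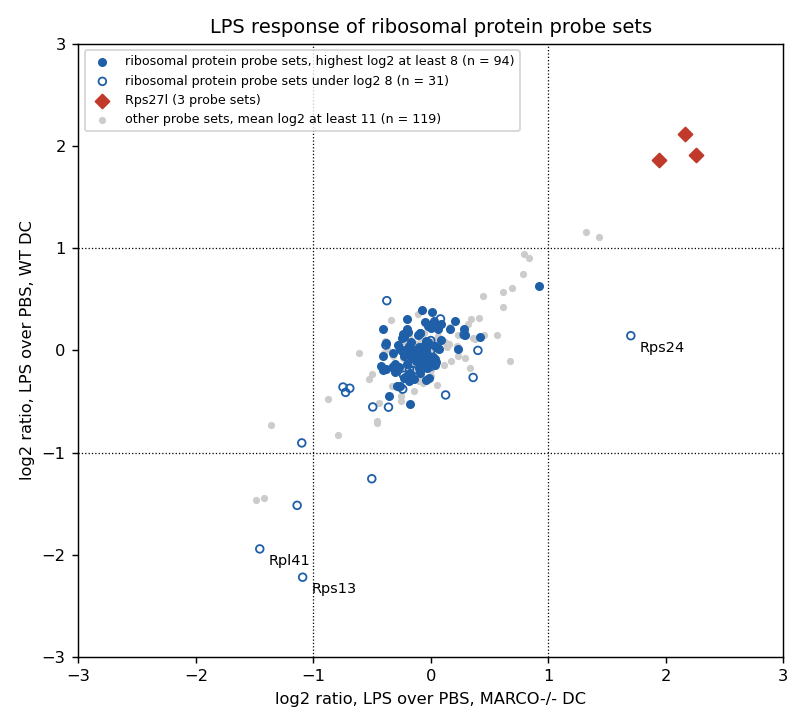
Log2 ratio of LPS over PBS in MARCO-/- DC (horizontal) and in WT DC (vertical), 1 point per probe set, with dotted lines at 2-fold; filled blue points are the 94 ribosomal protein probe sets that reach a log2 intensity of 8, open circles the 31 that do not, red diamonds Rps27l, and grey points 119 other probe sets with a mean log2 intensity of at least 11; gene names mark the probe set farthest from 0 of Rpl41, Rps13 and Rps24. The 3 diamonds lie beyond 2-fold on both axes, and no filled blue point does so on either.

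Probe sets of like brightness were set beside the ribosomal protein genes by the mean log2 intensity over the 4 arrays. Of the 97 members with a mean of at least 8, 3 passed 2-fold with LPS in MARCO-/- and 3 in WT, all of Rps27l, whereas 17.3% of the 1777 other probe sets of this class did so in MARCO-/- and 18.7% in WT. At 1.5-fold there were 4 of the 97 in each genotype, the fourth being of Rpl13, against 35.1% of the others in MARCO-/- and 36.8% in WT. In the brightest class, with a mean of at least 11, none of the 75 members passed 2-fold or 1.5-fold in either genotype. Of the 119 others in that class, 4.2% passed 2-fold and 12.6% passed 1.5-fold in MARCO-/-, and 3.36% and 10.1% did so in WT. The middle of the 2 distributions was alike there: the quartiles of the log2 ratio were -0.20 and -0.02 for the members and -0.22 and 0.06 for the others in MARCO-/-, and -0.14 and 0.07 against -0.15 and 0.08 in WT. The members lay near the top of the range of the arrays, the brightest at 5874 in MARCO-/- LPS, 5604 in MARCO-/- PBS, 6308 in WT LPS and 5722 in WT PBS, where the brightest of all probe sets had 6803, 6275, 7065 and 6497 on the same arrays. The part of this in the small ratios was not tested. The probe sets of a gene share their RNA and are not replicates.

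Rps27l was the member with the large response. Its probe set 1435429_PM_x_at had an intensity of 2279 in MARCO-/- LPS, 594 in MARCO-/- PBS, 2157 in WT LPS and 593 in WT PBS, which is 3.84-fold higher with LPS in MARCO-/- and 3.64-fold in WT. Its probe set 1450925_PM_a_at had 1936 in MARCO-/- LPS, 404 in MARCO-/- PBS, 1793 in WT LPS and 475 in WT PBS (4.79-fold and 3.77-fold higher with LPS in MARCO-/- and in WT). The probe set 1423254_PM_x_at had 1870.3 in MARCO-/- LPS, 418 in MARCO-/- PBS, 1787 in WT LPS and 412 in WT PBS (4.47-fold and 4.34-fold). The LPS arrays were thus high and the PBS arrays low with each probe set, and the genotypes lay close together under each treatment: MARCO-/- over WT was between -0.24 and 0.02 on the log2 scale with PBS and between 0.07 and 0.11 with LPS. Rps27l is nearly identical in protein to Rps27, which was not analysed here, and a name ending in x_at, as 2 of these probe sets have, marks probes that can bind related transcripts. Which of the 2 mRNAs the probes bound cannot be told from the deposited values.

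**Figure D2:**
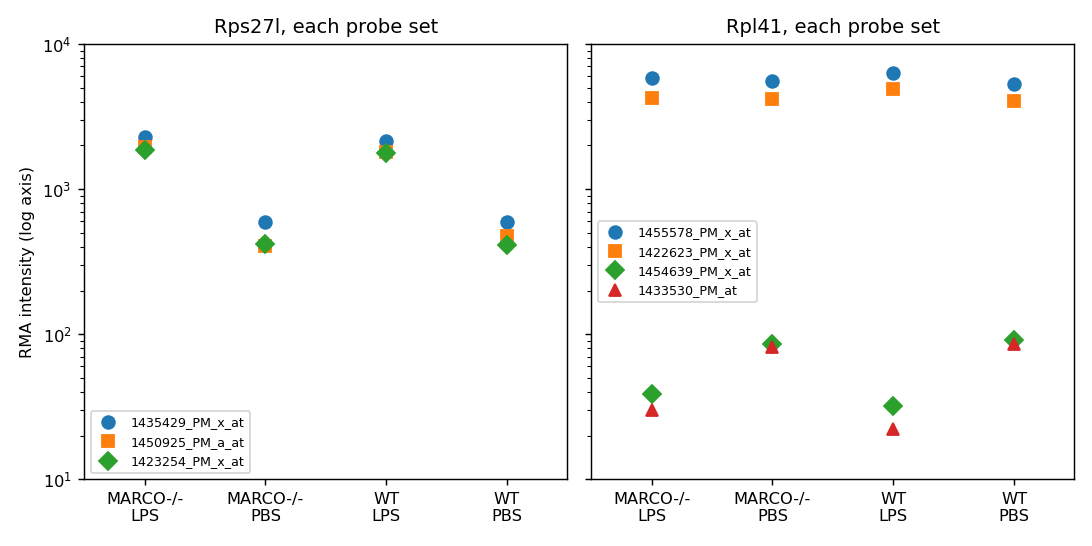
RMA intensity on a log axis in MARCO-/- LPS, MARCO-/- PBS, WT LPS and WT PBS DC, 1 array each, of the 3 probe sets of Rps27l (left) and the 4 of Rpl41 (right). All Rps27l probe sets lie between 1787 and 2279 with LPS and between 404 and 594 with PBS, whereas the bright and the dim probe sets of Rpl41 move in opposite directions.

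Rpl41 shows how far probe sets of a gene can part. It encodes a very short basic peptide at the interface of the subunits. Its bright probe set 1455578_PM_x_at had 5874 in MARCO-/- LPS, 5526 in MARCO-/- PBS, 6308 in WT LPS and 5268 in WT PBS, and 1422623_PM_x_at had 4272, 4185, 4912 and 4015 on the same arrays, so both were level or slightly higher with LPS. The dim probe set 1454639_PM_x_at had 38.9 in MARCO-/- LPS, 85.6 in MARCO-/- PBS, 31.9 in WT LPS and 91.3 in WT PBS (2.20-fold and 2.86-fold lower with LPS in MARCO-/- and in WT). The probe set 1433530_PM_at, also dim, had 29.9, 81.9, 22.3 and 85.8 (2.74-fold and 3.85-fold lower). Lower values with LPS were seen only with the dim pair of the 4 probe sets, and the sources used here do not say what part of a transcript these probes cover.

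The other calls were of the same kind, a dim probe set beside bright ones of the gene that were not called. Rps13, a protein of the small subunit, had 6.45 in MARCO-/- LPS, 13.7 in MARCO-/- PBS, 4.02 in WT LPS and 18.7 in WT PBS with 1415913_PM_at. Its brightest probe set had 1917, 2339, 1917 and 2432 on these arrays, a lower value with LPS in both genotypes that did not reach 2-fold (1.22-fold in MARCO-/- and 1.27-fold in WT). For Rpl22, an RNA-binding member that mouse T cells need to develop, 1448398_PM_s_at had 22.7 in MARCO-/- LPS, 48.7 in MARCO-/- PBS, 27.3 in WT LPS and 51.1 in WT PBS, and passed 2-fold in MARCO-/- (2.14-fold) but not in WT (1.87-fold). Whether the genotypes differ in this was not tested. Rpl9, at the base of the stalk, had 3.42 in MARCO-/- LPS, 4.85 in MARCO-/- PBS, 3.42 in WT LPS and 8.18 in WT PBS with 1436798_PM_at, values at background on 3 arrays. Rps24, a small subunit protein known for mutations in Diamond-Blackfan anemia in humans, had 18.2 in MARCO-/- LPS, 5.58 in MARCO-/- PBS, 9.72 in WT LPS and 8.79 in WT PBS with 1455195_PM_at, against 4396, 4487, 4735 and 4851 with its brightest probe set. These low values set the folds, and no bright probe set of any of the 4 genes passed 2-fold.

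Apart from Rps27l, the 62 genes that reach log2 8 had log2 ratios of LPS over PBS between -0.41 and 0.42 in MARCO-/- (median -0.09, 50 below 0 and 12 above) and between -0.35 and 0.28 in WT (median -0.04, 34 below and 28 above). Over all probe sets the median was 0.00 in MARCO-/- and 0.03 in WT. Among probe sets with a mean log2 of at least 11, the median in MARCO-/- was -0.09 for the members and -0.07 for the others. In WT these medians were -0.02 and -0.01, so other bright probe sets had medians below 0 too. The tallies of the 62 genes depended on the scaling of the arrays: 37 genes were below 0 and 25 above in MARCO-/-, and 43 and 19 in WT, after centring each array on its median. Quantile normalization gave 38 below and 22 above in MARCO-/- and 31 and 30 in WT, and cyclic loess 43 and 19 in MARCO-/- and 47 and 15 in WT. Which genotype had more genes below 0 changed with the scaling. As deposited, the median of the 22 small subunit genes was -0.11 in MARCO-/- and -0.07 in WT, and that of the 40 large subunit genes -0.07 in MARCO-/- and 0.01 in WT.

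On the large subunit, Rpl10, which joins the particle late in its assembly, had the lowest ratio in WT: 2835 in MARCO-/- LPS, 3407 in MARCO-/- PBS, 2838 in WT LPS and 3606 in WT PBS. Rpl3, at the peptidyl transferase center, had 2778 in MARCO-/- LPS, 3425 in MARCO-/- PBS, 3155 in WT LPS and 3643 in WT PBS. Both were lower with LPS in each genotype, by less than 2-fold. Rpl24, which forms a bridge to the small subunit, had 3086 in MARCO-/- LPS, 2669.6 in MARCO-/- PBS, 3366 in WT LPS and 2766 in WT PBS, and Rpl36a had 1938 in MARCO-/- LPS, 1454 in MARCO-/- PBS, 1687 in WT LPS and 1539.5 in WT PBS. These 2 were higher with LPS in each genotype, at most 1.33-fold. The stalk proteins, which recruit the elongation factors, stayed within 1.13-fold: Rplp0 had 3385 in MARCO-/- LPS, 3623 in MARCO-/- PBS, 3385 in WT LPS and 3816 in WT PBS, Rplp1 had 3732, 3759.7, 3667 and 3919, and Rplp2 had 4497, 4297, 4244 and 4209 on the same arrays.

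On the small subunit, Rps15, a protein of the head near the decoding site, had 2000.3 in MARCO-/- LPS, 2659 in MARCO-/- PBS, 2682 in WT LPS and 2777 in WT PBS, the lowest ratio in MARCO-/-. Its other bright probe set had 1723, 1952, 1701 and 1986, so that the array of MARCO-/- LPS cells was low with the first probe set and both LPS arrays with the other. Rps9 had 1847 in MARCO-/- LPS, 2446 in MARCO-/- PBS, 1891 in WT LPS and 2165 in WT PBS. Rps6, the member that S6 kinases phosphorylate when mTOR is active, had 5509.8 in MARCO-/- LPS, 5604 in MARCO-/- PBS, 5204 in WT LPS and 5722 in WT PBS. A dimmer probe set of Rps6, 1416142_PM_at, had 94.3 in MARCO-/- LPS, 158 in MARCO-/- PBS, 133 in WT LPS and 171 in WT PBS, lower with LPS by 1.68-fold in MARCO-/- and 1.28-fold in WT. The last of its 3 probe sets, 1453466_PM_at, lay at background (2.95 to 4.33 over the arrays). Phosphorylation was not measured. Rps26, near the exit of the mRNA channel, had 2704 in MARCO-/- LPS, 2301 in MARCO-/- PBS, 2462 in WT LPS and 2432 in WT PBS, slightly high with LPS in MARCO-/-. Rps2, at the entry of that channel, had 3286 in MARCO-/- LPS, 2929.9 in MARCO-/- PBS, 3595 in WT LPS and 3112 in WT PBS, slightly high with LPS in both.

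The spread between probe sets of a gene shows in part how finely such ratios can be read. It leaves out differences between arrays and between pools, since these probe sets share their RNA and array. In the 24 genes with 2 or more probe sets that reach log2 8, the log2 ratio of LPS over PBS differed between the lowest and the highest probe set by a median of 0.14 in MARCO-/- and 0.12 in WT, and at most by 0.96 and 0.61, both in Rpl13. For Rpl13 the brightest probe set had 2744 in MARCO-/- LPS, 2815 in MARCO-/- PBS, 2882 in WT LPS and 2853 in WT PBS, and the other had 364 in MARCO-/- LPS, 192 in MARCO-/- PBS, 369 in WT LPS and 239 in WT PBS. The ratios of most single genes above are of the size of this spread.

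With PBS, the comparison of MARCO-/- with WT DC asks what the lack of the receptor changes in resting cells. None of the 128 probe sets passed 2-fold, where 0.513% of all probe sets were called higher in MARCO-/- and 0.442% lower. With so few calls among all probe sets, fewer than 1 of 128 would be called at that rate in each direction, so the absence of calls says nothing particular about these genes. The 62 genes that reach log2 8, Rps27l left out, had log2 ratios between -0.21 and 0.18, with a median of -0.06 (48 below 0, 12 above), beside a median of 0.00 over all probe sets. This tally depended on the scaling of the arrays: 55 were below and 7 above after median centring. Quantile normalization gave 42 and 19, and cyclic loess 38 and 24. Among probe sets with a mean log2 of at least 11, the median was -0.05 for the members and -0.03 for the others. At the low end Rpl28, a large subunit protein, had 3186 in MARCO-/- PBS and 3687 in WT PBS, and at the high end Rps9 had 2446 and 2165 in the same groups. Probe sets of a gene differed in this ratio by a median of 0.07.

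With LPS, again none of the 128 probe sets passed 2-fold between MARCO-/- and WT DC, where 1.86% of all were called higher and 0.99% lower. The 62 genes had log2 ratios between -0.54 and 0.20 with a median of -0.10, 47 below 0 and 13 above. The sign of this median depended on the scaling of the arrays: it was -0.02 after centring each array on its median, -0.04 after quantile normalization and 0.04 after cyclic loess, with 26 genes below 0 and 36 above in the last, so no direction can be given for the set. The median of all probe sets moved by at most 0.08 among these scalings.

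**Figure D3:**
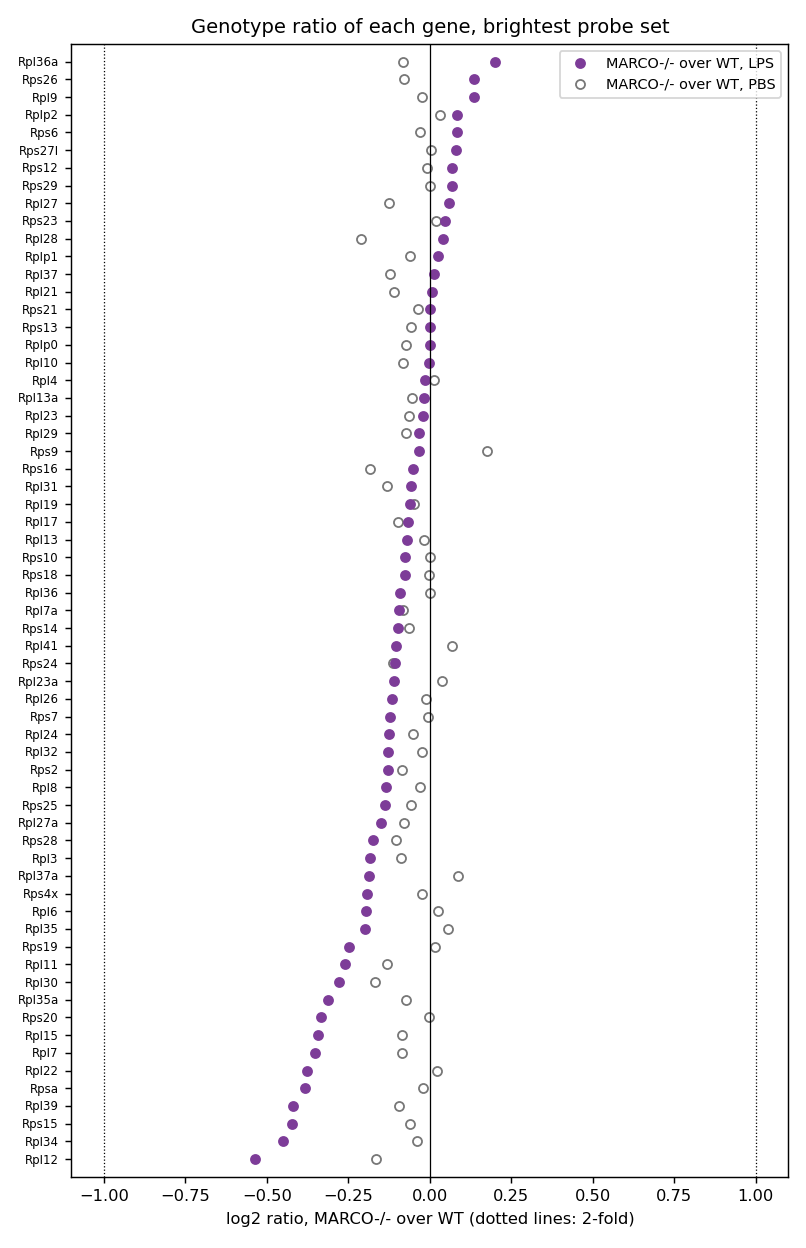
Log2 ratio of MARCO-/- over WT with LPS (filled) and with PBS (open) for the 63 genes that reach a log2 intensity of 8, by the brightest probe set of each, sorted by the ratio with LPS; dotted lines mark 2-fold. All points lie within 2-fold, the lowest at -0.54 (Rpl12, LPS) and the highest at 0.20 (Rpl36a, LPS).

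By the brightest probe set of each gene, the 5 lowest log2 ratios with LPS belonged to 3 genes of the large subunit and 2 of the small one, Rpl12 (-0.54), Rpl34 (-0.45), Rps15 (-0.42), Rpl39 (-0.42) and Rpsa (-0.38). Rpl12, at the base of the stalk, had 1212 in MARCO-/- LPS and 1758 in WT LPS, and 1387 in MARCO-/- PBS and 1556 in WT PBS (1.45-fold lower in MARCO-/- with LPS). Rpl34 had 2881 in MARCO-/- LPS and 3937 in WT LPS, and 3318 in MARCO-/- PBS and 3409 in WT PBS. Rpl39, which lines the exit tunnel of the nascent chain, had 3572 in MARCO-/- LPS and 4779.8 in WT LPS, and 4324 in MARCO-/- PBS and 4616 in WT PBS. For these 3 large subunit genes the MARCO-/- LPS array was the lowest of the 4 and the WT LPS array the highest. Rpl12 and Rpl34 have a single probe set, and the second probe set of Rpl39 lies at background, so no other probe set bears on them. The second probe set of Rps15 is bright and did not show the difference, with 1723 in MARCO-/- LPS and 1701 in WT LPS (log2 ratio 0.02). Rpsa had 2682 in MARCO-/- LPS and 3499 in WT LPS, and 3174 in MARCO-/- PBS and 3221 in WT PBS. At the other end Rpl36a, Rps26 and Rpl9 had log2 ratios of 0.20, 0.13 and 0.13. Rpl11 and Rpl23, the measured members that bind Mdm2, had log2 ratios of -0.26 and -0.02 with LPS and of -0.13 and -0.06 with PBS.

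No bright probe set of these genes had an LPS response that differed by 2-fold between the genotypes. Of the 2656 other probe sets that reach log2 8, 66 had a response at least 2-fold higher in MARCO-/- and 46 at least 2-fold lower. For the 62 genes, the log2 ratio of LPS over PBS in MARCO-/- minus that in WT had a median of -0.07 and lay between -0.41 (Rpl34) and 0.28 (Rpl36a). The sign of this median changed with the scaling (0.03 after median centring, -0.01 after quantile normalization and 0.03 after cyclic loess), so no direction is given. For Rps27l it was 0.08, 0.35 and 0.04 with the 3 probe sets. The 2 probe sets beyond a difference of 1 were dim ones, Rps24 1455195_PM_at (1.56) and Rps13 1415913_PM_at (1.13), and the bright probe sets of these genes differed by between -0.25 and 0.09. Over all 45037 probe sets, 1762 were at least that much higher in MARCO-/- and 859 lower. The 2 of 128 thus say nothing particular about the ribosomal protein genes. These differences rest on all 4 arrays and were not tested.

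Companion lists of other genes of protein synthesis were counted by the brightest probe set of each gene. Over all 17097 genes counted in this way, 6.32% were at least 2-fold higher with LPS in MARCO-/- and 5.98% lower, and 6.2% were higher and 8.31% lower in WT. Of 63 measured genes of ribosome biogenesis, the factors that make and process ribosomal RNA in the nucleolus, 4 were at least 2-fold higher with LPS in MARCO-/- and 17 in WT, and none was lower in either. The 4 in MARCO-/- are near the share of all genes. Their median log2 ratio was 0.39 in MARCO-/- and 0.63 in WT. Rrp9, a protein of the U3 small nucleolar particle, had 50.5 in MARCO-/- LPS, 31.7 in MARCO-/- PBS, 85.9 in WT LPS and 28.4 in WT PBS. Dkc1, the pseudouridine synthase of box H/ACA particles, had 222 in MARCO-/- LPS, 110.1 in MARCO-/- PBS, 301 in WT LPS and 116 in WT PBS, high with LPS in both genotypes and highest in WT. Gar1, of the same particles, had 144 in MARCO-/- LPS, 47.9 in MARCO-/- PBS, 127 in WT LPS and 58.8 in WT PBS. Between genotypes with LPS none of the 63 passed 2-fold, with a median log2 ratio of -0.29 and 49 genes below 0, beside 48.5% of all probe sets below 0. Other scalings of the arrays were not applied to this list, so no direction is given.

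Of 73 measured protein genes of the mitochondrial ribosome, 7 were at least 2-fold higher with LPS in MARCO-/- and 16 in WT, beside the same 6.32% and 6.2% of all genes, none was lower, and the median log2 ratio was 0.38 in MARCO-/- and 0.63 in WT. Mrps6 had 139 in MARCO-/- LPS, 48.3 in MARCO-/- PBS, 177 in WT LPS and 36.0 in WT PBS. Mrps22 had 105 in MARCO-/- LPS, 44.1 in MARCO-/- PBS, 144 in WT LPS and 44.1 in WT PBS. Both genes were at least 2.39-fold higher with LPS in each genotype. Of each of these lists 12 genes reached log2 8, and the stromal and muscle sum was highest on the WT LPS array, where the counts were higher too. Its part was not tested.

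**Figure D4:**
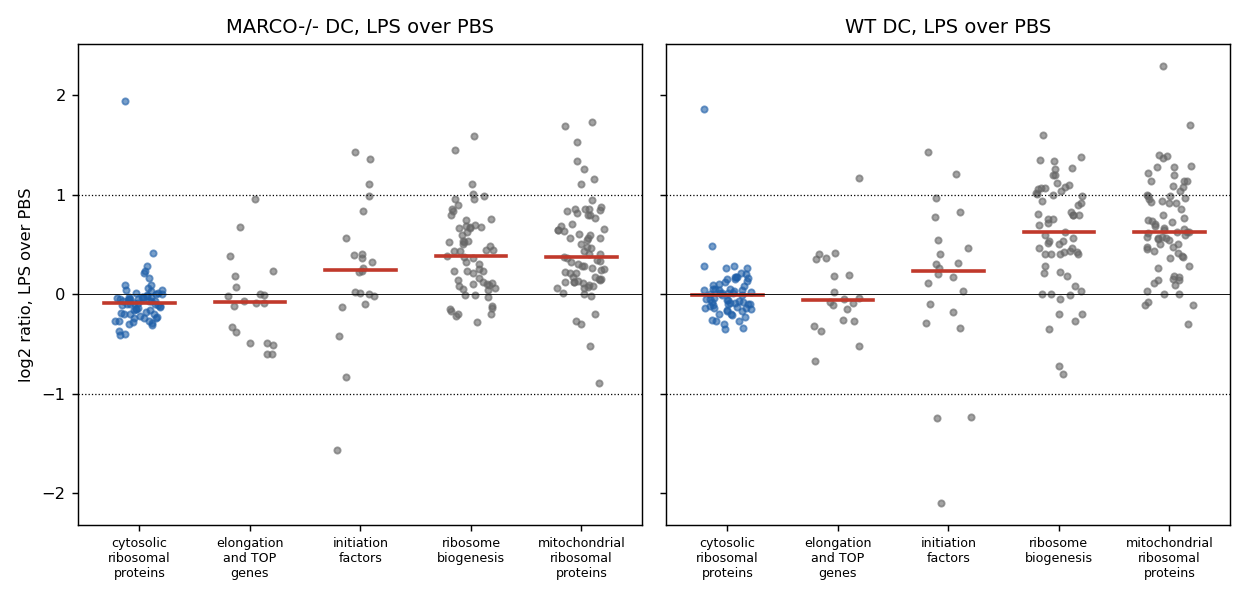
Log2 ratio of LPS over PBS in MARCO-/- DC (left) and WT DC (right), 1 point per gene by its brightest probe set, for 67 cytosolic ribosomal protein genes, 20 elongation and TOP mRNA genes, 22 initiation factors, 63 ribosome biogenesis genes and 73 mitochondrial ribosomal protein genes; red bars are medians and dotted lines 2-fold. The cytosolic genes lie near 0 apart from Rps27l, while the medians of the last 2 groups are 0.39 and 0.38 in MARCO-/- and 0.63 in WT.

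The elongation factors and other genes whose mRNAs carry the TOP motif stayed near the ribosomal proteins. Of 20 measured, none passed 2-fold with LPS in MARCO-/- and 1 in WT, with a median log2 ratio of -0.08 in MARCO-/- and -0.06 in WT. The 1 was Eef1e1, a scaffold protein of the aminoacyl-tRNA synthetase complex, with 246 in MARCO-/- LPS, 127 in MARCO-/- PBS, 259 in WT LPS and 115 in WT PBS. Eef1b2, an exchange factor of elongation factor 1, was lower with LPS, with 1354 in MARCO-/- LPS, 2059 in MARCO-/- PBS, 1658 in WT LPS and 2372 in WT PBS, less than 2-fold in both. Of 22 measured initiation factors, 3 passed 2-fold upward and 1 downward with LPS in MARCO-/-, and 2 were higher and 3 lower in WT, small counts beside 6.32% higher and 5.98% lower of all genes in MARCO-/- and 6.2% and 8.31% in WT. Eif6, which keeps the free large subunit from joining the small one, had 323 in MARCO-/- LPS, 120.1 in MARCO-/- PBS, 333 in WT LPS and 124 in WT PBS. Eif4g3, a scaffold of the cap-binding complex, had 107 in MARCO-/- LPS, 315 in MARCO-/- PBS, 72.0 in WT LPS and 308 in WT PBS. Eif6 was high and Eif4g3 low with LPS in both genotypes, although each has 1 probe set that stayed within 2-fold.

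Of 18 measured genes that regulate translation, 2 passed 2-fold upward and 4 downward with LPS in MARCO-/-, and 2 were higher and 6 lower in WT, beside the shares of all genes given above. Eif2ak2, the kinase PKR that halts initiation on binding double-stranded RNA, had 36.6 in MARCO-/- LPS, 3.41 in MARCO-/- PBS, 16.9 in WT LPS and 3.90 in WT PBS, so that its folds of 10.7 in MARCO-/- and 4.33 in WT are taken over PBS values at background. Eif4ebp1, the inhibitor of the cap-binding protein that mTOR inactivates, had 190.3 in MARCO-/- LPS, 69.1 in MARCO-/- PBS, 201 in WT LPS and 49.8 in WT PBS. Pdcd4, an inhibitor of the helicase Eif4a, had 95.2 in MARCO-/- LPS, 463 in MARCO-/- PBS, 107 in WT LPS and 422 in WT PBS. Eef2k, the kinase that slows elongation, had 8.16 in MARCO-/- LPS, 79.4 in MARCO-/- PBS, 8.71 in WT LPS and 48.1 in WT PBS, near background with LPS in both genotypes. Eif4ebp1 was thus high, with 1 of its 2 probe sets, and Pdcd4 and Eef2k low with LPS.

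Paralogs and fusion genes outside the rule were looked at for the same pattern as Rps27l. Rpl7l1, a paralog of Rpl7 that works in ribosome assembly, had 114 in MARCO-/- LPS, 61.4 in MARCO-/- PBS, 118 in WT LPS and 61.4 in WT PBS by its brightest probe set, higher with LPS in both genotypes and short of 2-fold (1.85-fold in MARCO-/- and 1.93-fold in WT), although 1 of its 3 probe sets passed 2-fold in each. Rpl22l1 had 881 in MARCO-/- LPS, 881 in MARCO-/- PBS, 993 in WT LPS and 1036 in WT PBS, and Rpl36al had 1201 in MARCO-/- LPS, 1423 in MARCO-/- PBS, 1255 in WT LPS and 1438 in WT PBS. Fau, which encodes Rps30 fused to a ubiquitin-like protein, had 3714 in MARCO-/- LPS, 4313 in MARCO-/- PBS, 3961 in WT LPS and 4132 in WT PBS. By their brightest probe sets none of these genes passed 2-fold with LPS, so that among the ribosomal proteins and paralogs measured Rps27l was the single gene whose brightest probe set did.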

How the data were processed

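The study compared CD11c-positive splenic DC of MARCO-/- and WT mice after culture with LPS or PBS, with 1 Affymetrix array per condition. The methods describe 3 DC pools per genotype and do not say which pool was hybridized. The deposited values are intensities on a linear scale that the authors had background-corrected, normalized and summarized per probe set with RMAexpress (version not given in the sources used here). RMA equalizes the distributions of the arrays, so a change in the total amount of mRNA per cell cannot be seen. Of 45141 probe sets, 104 controls were left out, and gene symbols came from GEO's platform annotation: 28898 probe sets had 1 symbol, 551 several, and 15588 were not listed. Log2 was taken with no offset, and the brightest probe set (highest mean log2 over the arrays) stood for its gene.

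The 4 ratios were MARCO-/- over WT with PBS and with LPS, and LPS over PBS in MARCO-/- and in WT, called at 2-fold. Members eligible to be named were those past 2-fold, per comparison the 5 genes with the highest and the 5 with the lowest ratio, the stalk, paralog and Mdm2-binding genes, and the 5 brightest and 5 dimmest genes. Not all eligible members, such as Rps20 and Rpl35, are described. From each companion list up to 4 genes with the largest ratios were eligible, and Eef1b2, Gar1, Rpl13, Rpl15, Rpl27a, Rpl7a, Rpsa, Rpl7l1, Rpl22l1, Rpl36al and Fau were added after their values were seen. The members and lists were chosen with earlier results of these data known. Start sites and their sequences are from RefSeq (GRCm38.p6). The 2-fold counts and the medians over the members were repeated with other scalings (median centring, quantile normalization, cyclic loess) and other ways of handling probe sets. The counts were also repeated with other thresholds. Ratios of the members eligible to be named were repeated with these scalings and with the probe sets of a gene averaged. The companion lists, the marker sums, the comparison with probe sets of like brightness and the start-site counts were not repeated. The steps were tested on simulated data. The number of arrays limits the precision. Python 3.11.15 (numpy 2.4.6, pandas 2.3.3, matplotlib 3.10.9) and R 4.3.3 with limma 3.58.1 were used, and columns of the authors' own comparisons were not part of the table.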

Additional observations from a re-analysis of the deposited data

Results flagged for a closer look

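The ratio between genotypes of 1 dim probe set of Rps24 went in opposite directions with the 2 treatments. The log2 ratio of MARCO-/- over WT of 1455195_PM_at was 0.90 with LPS (18.2 in MARCO-/- and 9.72 in WT) and -0.66 with PBS (5.58 in MARCO-/- and 8.79 in WT). With 1 array per group the difference was not tested. The 3 probe sets of Rps24 that reach a log2 intensity of 8 had log2 ratios between -0.32 and -0.10 with LPS and between -0.11 and -0.03 with PBS, and 2 of the 4 values of the dim probe set lie within 4 intensity units of the median of all intensities.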

How the results depend on the processing

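Only ratios past 2-fold of the members eligible to be named were checked for a reversed direction. By the brightest probe set these were the LPS ratios of Rps27l, and none reversed. Of the counts and medians over all members, 208 stayed within a factor of 1.5 (counts) or 0.1 on the log2 scale (medians) and 31 moved. The medians as deposited are themselves of about this size or smaller, so a median could change sign and still count as staying. By the brightest probe set of each gene, 1 gene (Rps27l) was at least 2-fold higher with LPS and 0 lower, in MARCO-/- and in WT alike. With the probe sets of a gene averaged, 1 was higher and 0 lower in MARCO-/-, and 1 higher and 1 lower in WT. Among probe sets that reach a log2 intensity of 8, and among those with a mean of at least 8 (a class chosen after seeing the data), 0 were lower with LPS in either genotype. Without names ending in x_at, s_at or a_at, 1 was higher and 2 lower in MARCO-/-, and 0 higher in WT. Without the paralogs, or without Rps27l alone, an alternative chosen after seeing the data, 1 was higher in MARCO-/- and 0 in WT. At 1.5-fold, 2 were lower in MARCO-/- than WT under PBS (2.62% of all probe sets), 2 higher and 2 lower with LPS (7.97% and 4.43%), and 7 lower with LPS over PBS in MARCO-/- (9.63%). At a log2 ratio of 0.32, the lowest threshold, 6 were lower in MARCO-/- than WT under PBS (9.42%), 4 higher and 22 lower with LPS (18.3% and 14.9%), 8 higher and 20 lower with LPS over PBS in MARCO-/- (18.5% and 17.6%), and 7 higher and 16 lower in WT (23.0% and 21.7%). Under cyclic loess the median log2 ratio of the 128 probe sets for MARCO-/- over WT with LPS was 0.030, against -0.10 as deposited. The median of the LPS response in MARCO-/- minus that in WT over the 62 bright genes was -0.07 as deposited, 0.03 with centred arrays, -0.01 with quantile normalization and 0.03 under cyclic loess. The cause of these moves was not tested beyond the construction of each alternative. Of the values of single members eligible to be named, 461 stayed and 79 moved. No paired analysis was possible because each condition has 1 array, and leaving out a replicate was not possible for the same reason. Signal over background limits the 31 dim probe sets, and binding of related transcripts may affect the 44 named x_at and the 7 named s_at.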
